A study of Mus musculus with 10 samples.

Results

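The F2 generation of this mouse series asked whether grandparental exercise left a trace in the muscle transcriptome of animals that never exercised. The members are the 4 arrays titled F2 EX or F2 SED, chosen by those titles alone, out of 10 arrays in the series. The series measured gastrocnemius RNA on Affymetrix whole-transcript arrays in F0 animals with voluntary exercise or a sedentary life, and in 2 generations of descendants. The F0 arrays, 1 each for EX and SED, came from males 28 weeks old, older than the descendants, and serve only to show the range of a signal. F0 animals were mated with partners of the same exposure, and F1 littermates were mated with each other to give F2, so that every grandparent of an F2 animal had the same history. All F1 and F2 animals were sedentary. F2 EX names C57BL/6 males, 8 weeks old, descended from exercised F0 animals, and F2 SED names C57BL/6 males of the same age descended from sedentary F0 animals. Each group had 2 arrays, called pool 1 and pool 2 here, and each array was hybridised with RNA pooled from 5 males. F1 EX and F1 SED, the parental generation, were likewise 8 weeks old with 2 pools of 5 males each, and serve as a second set of arrays.

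The pools set the limits of this design. The 2 pools of a group carry numbers, but no label states that their animals differ, and the design text speaks of 10 males per ancestry. The sources used here do not give how many F0 pairs or litters stood behind a pool. The p-values therefore measure only the spread between pools, which may be technical, and an effect of ancestry cannot be told apart from one of family or litter. With 2 pools against 2, an exact permutation test cannot give a two-sided p below 0.333, so tests across genes were made with limma, which borrows the spread from other genes and from the F1 pools.

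Gastrocnemius is a calf muscle of mixed fibre types, in which fast glycolytic fibres prevail and slow oxidative fibres are a minority. Slow fibres carry their own myosin, troponin and calcium pump genes and burn fatty acids, and endurance exercise is known to raise genes of oxidative metabolism such as the coactivator Ppargc1a. The fibres are wrapped in a collagen-rich matrix made by fibroblasts, which passes into the tendon at the muscle's ends. The label was borne out by muscle genes: all 12 genes of a skeletal muscle identity list lay in the top quintile of F2 signal. Acta1, skeletal actin, had a log2 signal of 13.48 and 13.54 in the EX pools and 13.52 and 13.54 in the SED pools. Pool values are given throughout in this order, EX pool 1, EX pool 2, SED pool 1, SED pool 2, as log2 probe set signals, and differences are EX minus SED on the same scale.

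No gene passed the test for a difference between F2 EX and F2 SED. Of 11963 genes tested with limma, 0 had a Benjamini-Hochberg adjusted p under 0.05, and the smallest adjusted p was 0.9995. At an unadjusted p under 0.05 there were 532 genes, 4.45% of those tested, 216 higher (1.81%) and 316 lower (2.64%) in EX. The 95% interval had a median reach of 0.33 to either side of the estimate. It rests on the spread between pools, F1 pools included, and does not cover differences between families or litters. The whole interval lay within 1 log2 unit of 0 for 98.8% of genes and within 0.5 for 63.8%. An estimate of 0.5 or more was found for 38 genes in the higher and 98 in the lower direction. Fitting the 4 F2 arrays alone also called 0 genes, with 987 at an unadjusted p under 0.05 and a smallest adjusted p of 0.570.

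Pools of the same ancestry did not resemble each other clearly more than pools of different ancestry. A gap of 0.5 or more was found in 279 genes between the EX pools and in 344 between the SED pools. Across ancestries the counts were 428 for EX pool 1 against SED pool 1, 621 for EX pool 1 against SED pool 2, 329 for EX pool 2 against SED pool 1 and 393 for EX pool 2 against SED pool 2. By this count EX pool 2 lay closer to SED pool 1 than the SED pools lay to each other, which turned with array medians centred (402 against 343).

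The F2 difference moved with signal level, a fact that touches every count below. Both EX pools lay above both SED pools in 3089 genes (25.8%) and below them in 1743 (14.6%). Genes were split by mean F2 signal into 5 quintiles. Among the quintile of genes with the lowest F2 signal, EX lay above in 11.6% and below in 28.6%. Among the quintile with the highest signal, EX lay above in 35.6% and below in 5.64%. In the quintiles between, from low to high, EX lay above in 19.9%, 28.2% and 33.7% and below in 19.9%, 11.7% and 6.94%. The median difference was -0.06 in the lowest quintile and 0.06 in the highest. In F1 the medians of the same quintiles lay between -0.02 and 0.01. Of the F2 genes without overlap 63.9% were higher in EX as deposited, 55.7% after quantile normalization, 55% after cyclic loess and 82.3% with array medians centred. Cyclic loess, which removes such trends between arrays, brought the medians of the 5 quintiles to between 0.01 and 0.03. Whether the trend belongs to the muscle or to the arrays was not tested.

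**Figure D1:**
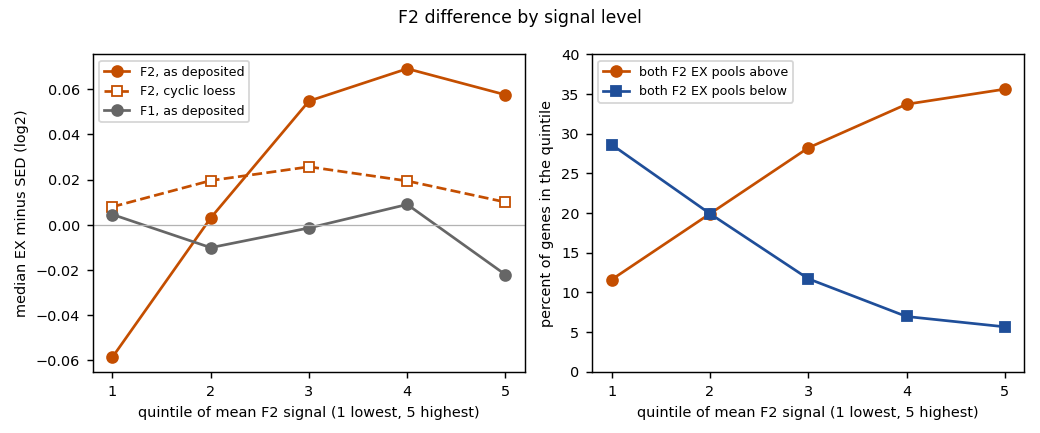
Left, the median EX minus SED difference (log2) of the genes in each quintile of mean F2 signal, for F2 as deposited, F2 after cyclic loess and F1 as deposited. Right, the percent of genes in each quintile with both F2 EX pools above or below both SED pools; the share above runs from 11.6% to 35.6% and the share below from 28.6% to 5.64%.

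Genes of the extracellular matrix lay higher in both F2 EX pools in most members, without any single member passing the test. Of 38 matrix genes measured above the signal filter (41 written in the list), EX lay above in 27 (71.1%) and below in 0, against 35.6% and 5.64% in the top quintile of signal, which held 23 of the 38. The median difference was 0.19, beside 0.04 over all genes, and 0 members passed the adjusted test. In bulk RNA, more cells of a type and more RNA per cell cannot be told apart. EX pool 2 was the highest pool for 30 of the 38 and SED pool 1 the lowest for 29. Fibroblast markers, of the cells that make this matrix, had EX above in 7 of 13 (53.8%) and below in 0, with a median of 0.06. Over all genes EX lay above in 25.8% and below in 14.6%. Col1a1, Col3a1, Dcn and Lum belong to both lists, so the 2 counts are not separate. The part of fibroblast markers in the matrix result was not tested. After cyclic loess EX still lay above in 21 of the 38, against 19.8% of all genes (16.3% below), with a median of 0.13, and the median lay between 0.15 and 0.28 when each F2 pool was left out in turn.

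The collagens, which form the fibrils and basement membrane networks, all had estimates above 0, as had 60.7% of all genes. For Col1a1, a chain of type I collagen, the pools gave 11.91, 12.06, 11.69 and 11.77. Both EX pools lay above both SED pools, and the estimate was 0.25 (standard error 0.14). For Col3a1, which forms type III collagen, they gave 9.98, 10.13, 9.80 and 9.90, an estimate of 0.21 (standard error 0.13), again without overlap. EX lay above in 9 of 12 collagens (75%), beside 25.8% of all genes, with a median of 0.20 and a range from 0.14 to 0.26. The top quintile of signal, where EX lay above in 35.6%, held 9 of the 12. The F1 median of the same 12 was also 0.20, and F1 EX lay above F1 SED in 8 of them, beside 13% of all genes.

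Proteoglycans and glycoproteins of the matrix had the larger estimates. Thbs2, a thrombospondin that modulates collagen assembly, read 7.17, 7.36, 6.75 and 6.89. Both EX pools were higher, and the estimate was 0.44 (95% interval 0.10 to 0.78). Thbs1, its relative and an activator of TGF-beta, read 7.57, 7.78, 7.23 and 7.28, with an estimate of 0.42. Bgn, the small proteoglycan biglycan, read 8.62, 8.84, 8.34 and 8.49, with an estimate of 0.32. EX pool 2 was the highest and SED pool 1 the lowest pool for each of these 3 genes. Postn, periostin, read 6.74, 6.95, 6.36 and 6.60, and showed the same order of pools. All 13 members of the group had estimates above 0, and EX lay above in 11 (84.6%), beside 25.8% of all genes. In F1 the group did not share this, and its median was -0.05. F1 EX lay above in 0 and below in 4, beside 13% and 16.6% of all genes. Thbs2 was estimated at -0.26 in F1.

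Enzymes and regulators of the matrix were mixed. Mmp14, a membrane-bound collagenase, read 6.96, 6.95, 6.43 and 6.79, an estimate of 0.35, without overlap. Its F1 estimate was 0.32, also without overlap. Serpinh1, a chaperone that folds collagen, read 6.06, 6.55, 6.26 and 6.42, with EX pool 2 highest and EX pool 1 lowest, an estimate of -0.04. Of the 13 such genes EX lay above in 7 (53.8%) and below in 0, beside 25.8% and 14.6% of all genes.

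Tendon and cartilage genes were led by EX pool 2, the highest pool for 16 of 19. Chad, chondroadherin, a cell-binding protein of cartilage and tendon, read 8.05, 8.40, 7.67 and 7.76, an estimate of 0.51 (95% interval 0.19 to 0.83). Both EX pools lay above. In F1 the same gene had 7.55 and 7.59 in the EX pools against 8.01 and 7.89 in the SED pools, an estimate of -0.38. Comp, a cartilage matrix protein, read 5.81, 6.30, 5.73 and 5.71, and Col12a1, which coats collagen fibrils, read 6.55, 7.05, 6.46 and 6.50. In both genes EX pool 2 stood clear of the other 3 pools, which lay close together. Tnmd, tenomodulin, a tendon cell protein, read 7.81, 8.10, 7.65 and 7.78. EX lay above in 14 of 19 listed genes (73.7%) and below in 1 (5.26%), beside 25.8% and 14.6% of all genes. The top quintile of signal held 4 of the 19. The median was 0.23, and became 0.10 without EX pool 2 and 0.36 without EX pool 1. The F1 median was -0.14. F1 EX lay below F1 SED in 7 of the 19 and above in 2, beside 16.6% and 13% of all genes. The one listed gene with both EX pools lower was Sox9, a transcription factor of cartilage, at 4.002, 4.37, 4.46 and 4.71, an estimate of -0.40. Of the 4 transcription factors in the list EX lay above in 1 and below in 1, with a median of -0.01. Of the 15 matrix and membrane proteins EX lay above in 13 and below in 0, with a median of 0.24.

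Genes of slow fibres lay higher in EX in a like share of members. Tnnt1, slow troponin T, read 8.64, 8.66, 8.28 and 8.28. The pools of each ancestry lay close together and the ancestries apart, and the estimate was 0.37 (95% interval 0.12 to 0.63). In F1 it was 0.20, with 8.53 and 8.63 in EX and 8.37 and 8.38 in SED, again without overlap. Myh7, slow myosin heavy chain, read 9.29, 9.39, 8.89 and 9.19, an estimate of 0.30 (95% interval -0.04 to 0.63). Its F1 estimate was 0.27, with both F1 EX pools above. Myl3, a light chain of slow myosin, read 9.33, 9.20, 8.92 and 9.03 in F2, an estimate of 0.29, while its F1 estimate was -0.15. EX lay above in 14 of 19 slow fibre genes (73.7%) and below in 1, Myh7b, whose low signal of 3.85, 3.65, 3.99 and 3.91 placed it in the lowest quintile. The top quintile of signal, where EX lay above in 35.6% and below in 5.64% of genes, held 13 of the 19. After cyclic loess EX lay above in 12 of the 19 and below in 0, beside 19.8% and 16.3% of all genes, with a median of 0.17. As deposited, the median was 0.21 in F2 and -0.03 in F1. It was 0.12 without SED pool 1, which was the lowest pool for 13 of 19 members, and 0.32 without SED pool 2.

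Genes of fast fibres, which make up most of the muscle, differed little. Myh2 of fast oxidative fibres read 11.53, 11.52, 11.42 and 11.39, an estimate of 0.12 (95% interval -0.19 to 0.43). The median of 19 fast fibre genes was 0.04, equal to that of all genes, and EX lay above in 9 (47.4%) and below in 0. All 19 lay in the top quintile of signal, where EX lay above in 35.6% and below in 5.64% of genes.

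**Figure D2:**
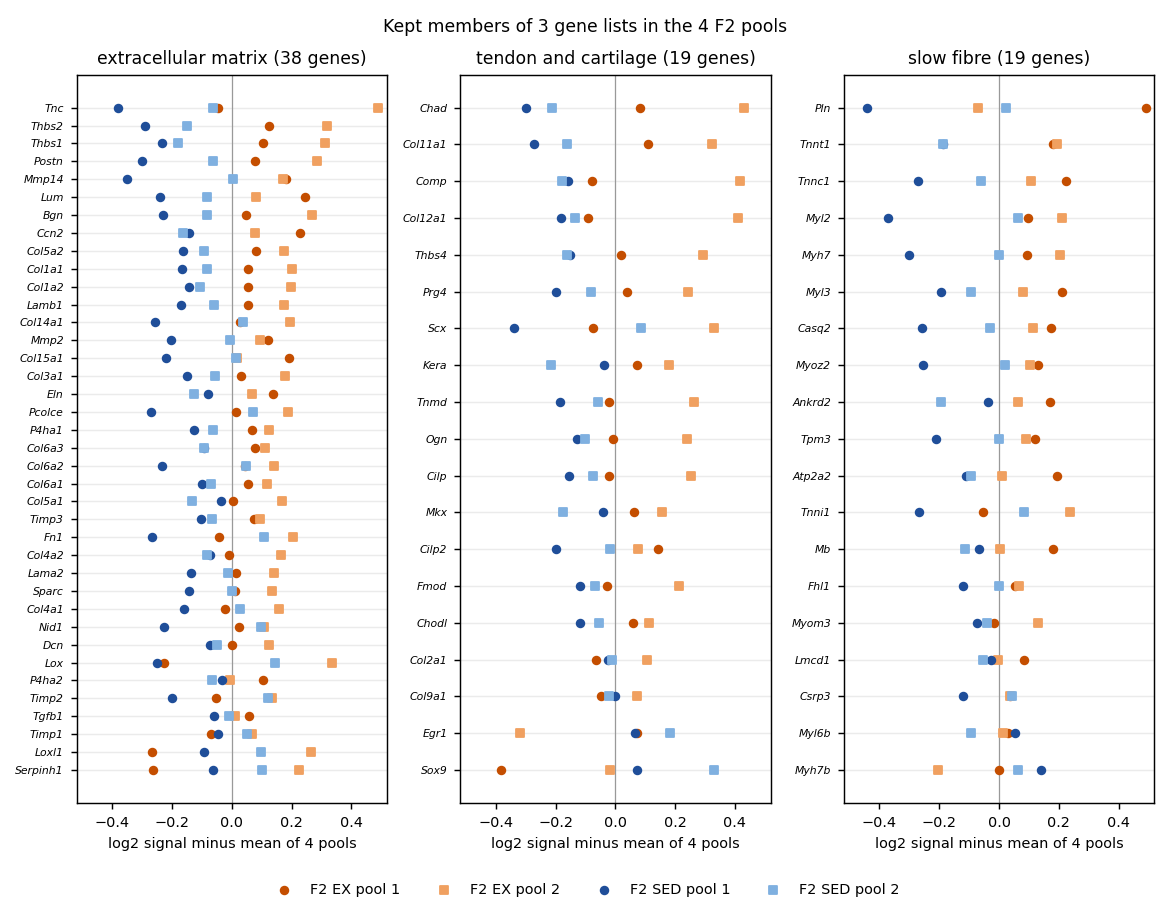
Log2 signal of each kept gene of 3 lists in the 4 F2 pools, minus the mean of the 4 pools; orange marks EX and blue marks SED pools. EX pools lie to the right of SED pools in 27 of 38 matrix, 14 of 19 tendon and cartilage, and 14 of 19 slow fibre genes, and EX pool 2 is the highest pool for 30, 16 and 6 of them.

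Fuel metabolism gave small estimates. In fatty acid uptake and oxidation EX lay above in 12 of 32 genes (37.5%) and below in 0, which is near the 35.6% of the top quintile, and the median was 0.10. After cyclic loess EX lay above in 4 of the 32, beside 19.8% of all genes. Acaa2, the thiolase of the last beta-oxidation step, read 9.35, 9.18, 8.96 and 8.91, an estimate of 0.33, without overlap. Cpt2, of the carnitine shuttle that brings fatty acids into mitochondria, read 7.69, 7.61, 7.42 and 7.33, an estimate of 0.28. The F1 estimates of Acaa2 and Cpt2 were -0.03 and -0.14. The tricarboxylic acid cycle had a median of 0.06 and oxidative phosphorylation of 0.04, with EX above in 7 of 17 (41.2%) and 10 of 48 genes (20.8%). The top quintile of signal, with its 35.6%, held 17 and 46 of them.

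The genes most often followed after exercise did not separate the F2 groups. Ppargc1a, the coactivator of mitochondrial genes, read 6.86, 6.64, 6.86 and 6.52, and the ancestries overlapped. Its estimate was 0.06 with a 95% interval from -0.33 to 0.45. Cs, citrate synthase, read 10.92, 11.01, 10.92 and 11.04, and Slc2a4, the insulin-responsive glucose transporter, read 10.14, 10.01, 10.10 and 10.07. Both overlapped, with estimates of -0.02 each. Pdk4, a kinase that spares glucose, read 10.92, 10.95, 11.04 and 10.54, an estimate of 0.14 (95% interval -0.24 to 0.52). The intervals of Ppargc1a, Cs and Slc2a4 leave room for differences of up to 0.45, 0.28 and 0.26 in the higher direction.

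Ppp1r3c was the one gene in the top 2 quintiles of signal among the 15 lower ones named here. It encodes a subunit that targets a phosphatase to glycogen and promotes glycogen synthesis. It read 8.27 and 8.46 in the EX pools against 9.16 and 8.92 in the SED pools, so that the ancestries did not overlap. The estimate was -0.67 (95% interval -1.03 to -0.30), with an unadjusted limma p of 0.00234 and an adjusted p of 0.9995. The choice by p did not use the F1 difference, though the spread between F1 pools entered that p. The gene also stood in a fixed set, chosen with earlier results of these data known, so its F1 values are not a separate look. F1 gave 8.06 and 8.38 in EX against 8.81 and 8.55 in SED, an estimate of -0.46 without overlap. The other glycogen genes did not share the direction, for the median of the list of 20 was 0.04. EX lay above in 6 (30%) and below in 2 (10%), beside 25.8% and 14.6% of all genes. Glycogen synthase Gys1 read 10.39, 10.38, 10.31 and 10.35, and Pygm, the muscle phosphorylase, 13.05, 13.09, 13.05 and 13.00.

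Glrx3 had the smallest p of all genes. It encodes a glutaredoxin with a part in iron-sulfur cluster handling and cardiac growth signalling. The EX pools read 5.56 and 5.58 and the SED pools 4.75 and 4.81. The pools of each ancestry lay within 0.06 of each other and the ancestries 0.75 apart. The estimate was 0.79 (95% interval 0.48 to 1.10), an unadjusted limma p of 0.000243 and an adjusted p of 0.9995. In F1 the order was turned, with 4.64 and 4.29 in EX against 4.87 and 4.89 in SED, an estimate of -0.42. The difference between the generations' effects was 1.20, with an unadjusted limma p of 0.000135 and an adjusted p of 0.919. Nubp1, an assembly factor of iron-sulfur proteins in the cytosol, read 5.43, 5.28, 5.09 and 4.80, an estimate of 0.41. The other 13 genes of iron-sulfur handling had no unadjusted p under 0.05, and the median of all 15 was 0.03.

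Other genes also had both EX pools above, and whether they share pathways was not tested. Sestd1, a lipid-binding regulator of calcium channels, read 5.69, 5.67, 5.13 and 5.16, an estimate of 0.54. Maoa, which breaks down serotonin and noradrenaline, read 4.81, 4.44, 3.89 and 3.95, an estimate of 0.70. Aplnr, the receptor for apelin in vessels, read 7.07, 7.05, 6.62 and 6.62, an estimate of 0.44. In Aplnr the pools of each ancestry nearly coincided, and the gap between ancestries was wider than either pair. F1 showed no such gap for these 3 genes, with estimates of 0.03, 0.01 and 0.01. Myo1d, an unconventional myosin, read 5.75, 5.84, 5.36 and 5.29, an estimate of 0.47, and was the one of the 15 higher genes whose F1 estimate, 0.35, had an unadjusted p under 0.05 in the same direction. Csgalnact1, which starts chondroitin sulfate chains, read 4.41, 4.38, 3.88 and 3.78. The rest of the 15 were Lyrm9, Fam126b, Gtpbp8, Arhgap32, Ccdc58, Eid1, Naalad2, Chad and Aatf. Estimates of all 15 ran from 0.44 to 0.79, or 1.35-fold to 1.73-fold.

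The genes with both EX pools below were mostly of low signal. Of the 15 named, 13 lay in the lowest 2 quintiles of signal, 4 of them in the lowest. EX lay below in 28.6% of genes in the lowest quintile and above in 11.6%. In the next quintile the 2 shares were equal, at 19.9%. Of the 15 higher genes, 8 lay in the lowest 2 quintiles. Kbtbd11, a kelch-repeat protein, read 3.23, 3.30, 3.84 and 4.08, an estimate of -0.69. Cpz, a carboxypeptidase of the matrix that binds Wnt proteins, read 3.66, 3.90, 4.58 and 4.57, an estimate of -0.80. Krtap17-1 and Krtap3-1, keratin-associated proteins of hair, had estimates of -0.66 and -0.59. Pkp2, a plaque protein of desmosomes, read 3.25, 3.18, 4.08 and 3.74, an estimate of -0.70. For all 5 genes the SED pools were higher. Kbtbd11 and Pkp2 lay in the lowest quintile, and Cpz, Krtap17-1 and Krtap3-1 in the next. After cyclic loess the 5 estimates ran from -0.74 (Cpz) to -0.55 (Krtap3-1). The rest were Tmem200b, Mob3c, Ush1g, Fam43b, Ccdc92, Kcnk15, Dlx3, Pim2 and Egr4, besides Ppp1r3c. Their estimates together ran from -0.80 to -0.51.

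**Figure D3:**
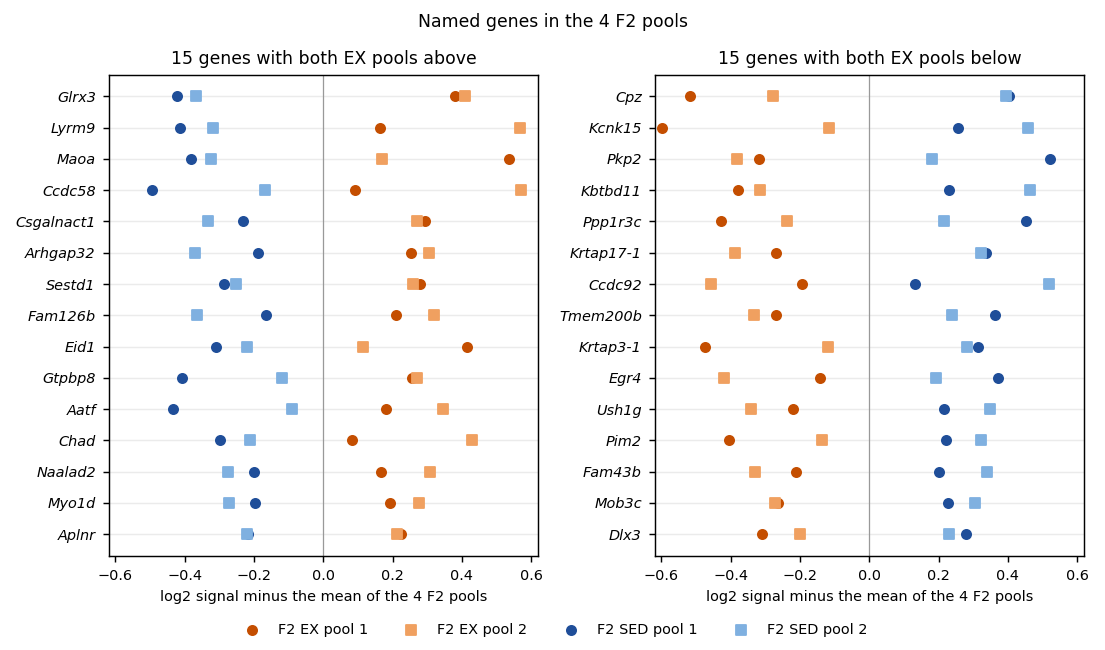
Log2 signal of the 30 genes with the smallest unadjusted p and no overlap between ancestries, 15 in each direction, in the 4 F2 pools, minus the mean of the 4 pools. They were chosen for not overlapping, and the plot shows how close the pools of an ancestry lay, from Aplnr and Glrx3, where they nearly coincide, to Kcnk15 and Ccdc58.

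The F1 differences were not used in choosing these 30 genes, and lay on the same side in about as many of them as on the opposite side. Of the 15 higher genes 8 had an F1 estimate above 0 (48.9% of all genes did), F1 EX lay above in 3 and below in 3, and the F1 median was 0.01. Of the 15 lower genes 8 had an F1 estimate below 0, F1 EX lay below in 3 and above in 4, and the F1 median was -0.02. Over all genes F1 EX lay above in 13% and below in 16.6%. The genes that lay on the same side in both generations were Fam126b, Myo1d and Ccdc58 among the higher and Fam43b, Ccdc92 and Ppp1r3c among the lower. The test of a difference between the generations' effects called 0 of 11963 genes in limma, and 519 (4.34%) had an unadjusted p below 0.05. It called 143 without F1 EX pool 2 and 5 without F1 SED pool 1, each fit then holding 1 pool in an arm whose spread was taken from the other groups. The F1 EX pools lay 0.5 or more apart in 1830 genes, against 316 for the F1 SED pools, which limits what F1 can show. That spread also entered the F2 p-values and intervals of the main fit.

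**Figure D4:**
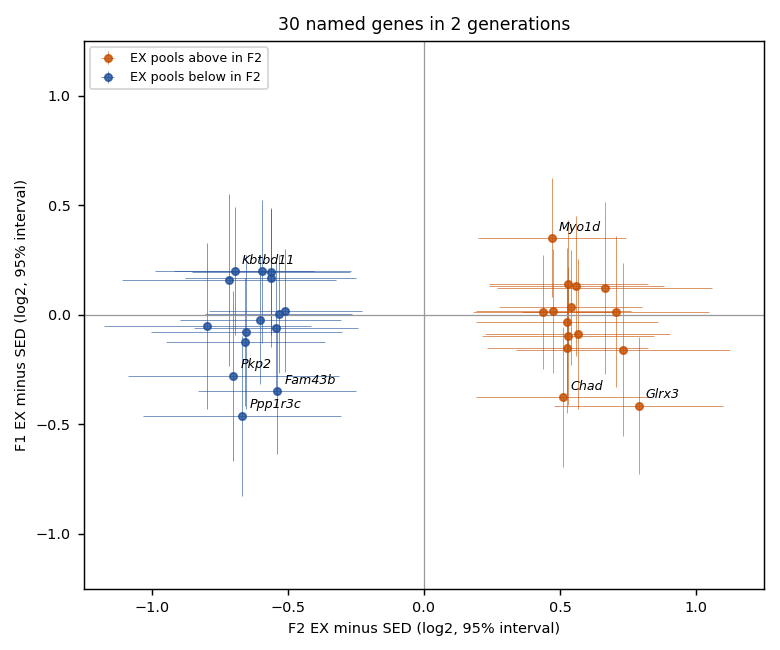
EX minus SED estimate in F1 (vertical, log2) against F2 (horizontal, log2) for the same 30 genes, with 95% intervals from limma. F2 values lie away from 0 because the genes were chosen so, and F1 values scatter around 0 from -0.46 to 0.35.

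Clock genes were examined because the core activator Arntl lay lower in EX in both generations, so its F1 values are not a separate look. BMAL1, the Arntl product, pairs with CLOCK on E-box sequences to drive Per, Cry and Ciart genes, whose products in turn block it. Arntl read 4.83, 4.93, 5.13 and 5.41, with both EX pools below, an estimate of -0.39 (95% interval -0.74 to -0.03) and an unadjusted limma p of 0.0345 (adjusted p of 0.9995). F1 gave 4.83 and 5.20 in EX against 5.67 and 5.64 in SED, an estimate of -0.63 without overlap. Per1, a repressor, read 6.55, 6.15, 6.07 and 5.66, an estimate of 0.48 with an interval from -0.12 to 1.09, and the EX pools lay above. Cry2, another repressor, read 6.87, 6.75, 6.49 and 6.65, and Ciart, a repressor that peaks in antiphase to Arntl, read 5.90, 5.76, 5.81 and 5.10. For Ciart the ancestries overlapped and SED pool 2 alone was low. Nr1d1, which represses Arntl, read 9.59, 9.64, 9.52 and 9.72, and Dbp, a strong output of the clock, 8.37, 8.41, 8.27 and 8.30, with estimates for Dbp of 0.11 and for Nr1d1 close to 0. Of 17 clock genes EX lay above in 6 (35.3%) and below in 2 (11.8%), beside 25.8% and 14.6% of all genes, with a median of 0.06. The sources used here do not give the time of day at which muscle was taken, and its part in these values was not tested.

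The promoters of the clock genes show where the activator's E-box stands. The 250 bases before a RefSeq start site (GRCm38.p6) were searched on both strands for the E-box CACGTG, the D-box TTATGTAA and the ROR motif AGGTCA, shown in capitals. Ciart has 3 E-boxes, Per1 has 1 together with 1 ROR motif that does not overlap it, and Arntl has none of the 3 motifs before its starts, nor has Cry2. Arntl and Per1 have 2 starts each in the table, and the second window of Per1, at chr11:69099902-69100151, holds none of the 3 motifs. Among all 32851 such windows 6.02% hold the E-box, 0.819% the D-box and 14% the ROR motif. Ciart lies on the minus strand at chr3:95882229-95882478, where the last 29 bases fall inside the annotated gene span. Per1 at chr11:69098699-69098948 and Arntl at chr7:113207215-113207464 lie on the plus strand, at starts inside the span of a longer gene model. A match is a description of letters and not of binding, and the absence of one says nothing about the factor.
Ciart: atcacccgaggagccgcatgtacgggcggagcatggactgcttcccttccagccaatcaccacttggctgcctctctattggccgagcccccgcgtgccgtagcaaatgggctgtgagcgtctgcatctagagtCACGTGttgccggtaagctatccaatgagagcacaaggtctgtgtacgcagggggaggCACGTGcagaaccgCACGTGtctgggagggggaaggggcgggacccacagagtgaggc
Per1: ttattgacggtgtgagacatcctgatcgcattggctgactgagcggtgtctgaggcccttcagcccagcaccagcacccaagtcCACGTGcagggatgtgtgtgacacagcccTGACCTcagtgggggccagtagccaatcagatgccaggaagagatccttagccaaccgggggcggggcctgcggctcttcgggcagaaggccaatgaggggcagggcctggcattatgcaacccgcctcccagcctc
Arntl: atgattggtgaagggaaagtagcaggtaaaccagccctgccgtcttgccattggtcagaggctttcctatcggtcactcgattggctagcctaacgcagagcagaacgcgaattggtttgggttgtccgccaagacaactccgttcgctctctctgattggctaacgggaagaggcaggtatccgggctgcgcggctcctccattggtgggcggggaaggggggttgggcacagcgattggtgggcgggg
The 3 E-boxes of Ciart lie 110, 52 and 38 bases before the start, and that of Per1 160 bases before it.

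A microRNA gene was left out of the named set by rule and is given here for its size. Mir99b read 4.50, 4.26, 5.02 and 5.50, with both EX pools below, an estimate of -0.88 and an unadjusted limma p of 0.00153 (adjusted p of 0.9995). It lies beside Mirlet7e and Mir125a on chromosome 17, and these neighbours had estimates of 0.07 and -0.09. Mir212 read 4.77 and 4.57 in the EX pools, with an estimate of -0.57, beside -0.20 for its neighbour Mir132 on chromosome 11. The F1 estimates of Mir99b and Mir212 were 0.02 and 0.11. Of 60 microRNA genes above the filter EX lay below in 30 and above in 7. The lowest 2 quintiles of signal held 45 of them. There EX lay below in 28.6% and 19.9% of all genes and above in 11.6% and 19.9%. The median of the 60 was -0.15, and -0.11 after cyclic loess. The probe sets are named by gene and do not tell a mature microRNA from its precursor. The mature sequences, from RefSeq with the seed (bases 2 to 8) in capitals, show that the 5p arms of the first cluster have different seeds while Mir212 and Mir132 share that of their 3p arms. Their 5p arms, not printed, differ in seed. They are also given because the neighbours differ in estimate.
miR-99b-5p: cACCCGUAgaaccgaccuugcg
let-7e-5p: uGAGGUAGgagguuguauaguu
miR-125a-5p: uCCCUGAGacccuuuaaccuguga
miR-212-3p: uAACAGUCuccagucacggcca
miR-132-3p: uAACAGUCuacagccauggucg

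Members of other lists also had both EX pools on one side, beside 25.8% above and 14.6% below over all genes. Nos3, endothelial nitric oxide synthase, read 4.85, 4.68, 5.14 and 5.23, an estimate of -0.42, while F1 EX lay above F1 SED by 0.22. Icam2, an adhesion molecule of the same cells, read 4.50, 4.62, 4.26 and 4.18, an estimate of 0.34, and 0.42 in F1. The endothelial list of 20 had EX above in 8 (40%) and below in 2 (10%), with a median of 0.08. Hspa1a, the inducible heat shock protein 70, read 4.42, 4.39, 4.86 and 4.87, an estimate of -0.46, among 19 chaperones with a median of 0.09. Dlk1, a paternally expressed imprinted gene of growth, read 4.88, 4.71, 5.14 and 5.50, an estimate of -0.52, among 19 imprinted genes with a median of 0.02 and EX above in 3 and below in 2. Enzymes of DNA methylation are of interest in a study of inheritance. Dnmt3a, a methyltransferase that sets new marks, read 7.42, 7.19, 7.19 and 7.25, and overlapped. Ehmt2, a histone H3 lysine methyltransferase, read 6.38, 6.26, 6.04 and 6.10, an estimate of 0.25, and 0.20 in F1. The list of 24 methylation and chromatin genes had EX above in 11 (45.8%) and below in 1 (4.17%), with a median of 0.10. Among its 12 genes that remove marks EX lay above in 7 (58.3%) and below in 0, with a median of 0.14. Among those that set marks EX lay above in 3 of 8, and among those that read them in 1 of 4.

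Some large differences came from a single pool. Genes in which 1 pool lay 0.5 or more above the other 3 numbered 38 for EX pool 1, 8 for EX pool 2, 10 for SED pool 1 and 72 for SED pool 2. Of the 38, 15 belong to a list of plasma protein and liver enzyme genes and 10 to a list of neuronal and glial genes, both chosen after the values were seen, and 13 to neither. They included Aldoc and Car8, whose products are abundant in the cerebellum, and Pcp4, a calmodulin regulator named after Purkinje cells. Pcp4 read 5.38, 3.95, 3.80 and 3.77, Car8 6.28, 4.97, 4.76 and 4.80, and Aldoc 6.04, 4.04, 3.73 and 4.26. One pool was high and the other 3 lay near each other. Pcp4 and Car8 were thereby among the largest estimates of the higher direction, at 0.88 and 0.85, without standing for EX as a group. Rnd2, another of the 5 largest, had both EX pools high, at 4.81, 4.61, 3.85 and 4.02, an estimate of 0.77. Its F1 pools overlapped, with an estimate of 0.27. Of 18 neuronal and glial genes above the filter (26 in the list), EX pool 1 was the highest F2 pool for 14, and higher than all 9 other arrays of the series for 12.

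Plasma proteins of the liver followed a related order. Alb, albumin, read 10.04, 7.84, 7.31 and 9.02 in F2, while the 6 arrays of F0 and F1 lay between 3.95 and 7.35. Ahsg, fetuin A, read 6.63, 3.98, 3.56 and 5.25. EX pool 1 was highest and SED pool 2 second in both. Of 19 such genes above the filter (27 in the list, also chosen after the values were seen), EX pool 1 was the highest F2 pool for 17, each of them above all 9 other arrays. Both EX pool 1 and SED pool 2 lay above the other F2 pools for 16. The mean deviation of the 19 genes was 0.85 in EX pool 1, -0.41 in EX pool 2, -0.64 in SED pool 1 and 0.20 in SED pool 2.

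SED pool 2 stood apart in leukocyte and lipid genes. Ptprc, the CD45 antigen of all leukocytes, read 3.41, 3.72, 3.46 and 4.98, and Cd74, the invariant chain of antigen-presenting cells, 5.70, 6.00, 5.45 and 6.96. Scd1, a desaturase of fat synthesis, read 8.79, 8.72, 8.39 and 9.85, and Fasn, fatty acid synthase, 6.45, 6.54, 6.24 and 7.42. In each, SED pool 2 was high and the other 3 pools lay lower, so EX and SED overlapped. The 15 leukocyte genes above the filter, of 25 chosen after the values were seen, were each highest in SED pool 2, and higher there than on any of the 9 other arrays. A list chosen so favours such an order. Among the other marker lists, the adipocyte list had a mean deviation of 0.26 and the myeloid list of 0.23 in SED pool 2, against -0.17 and -0.19 in SED pool 1. Rac2, a GTPase of blood cells at 4.59, 4.56, 4.85 and 5.81, was among the 5 largest estimates of the lower direction at -0.75 through this pool, as was Pate11 at 3.96, 4.58, 4.62 and 5.85. The part of these transcripts in the other results was not tested. Whether RNA of other tissues or blood cells entered these pools was not tested. Without 1 F2 pool the median of the myeloid list ran from -0.27 to 0.20 and that of the imprinted list from -0.06 to 0.10. The matrix median was 0.24 without EX pool 1 and 0.28 without SED pool 2.

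**Figure D5:**
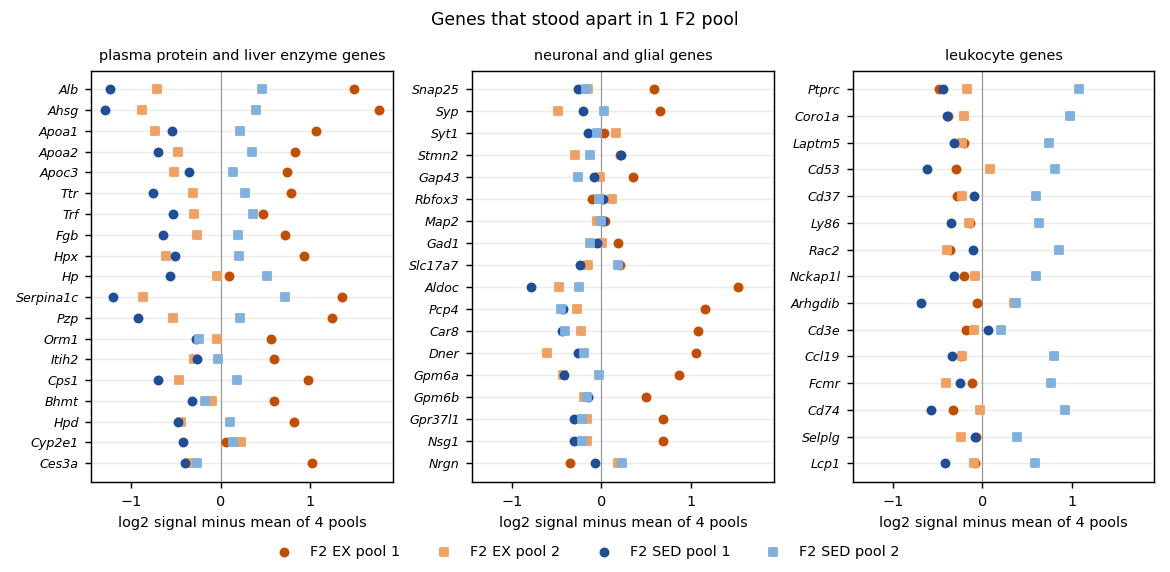
Log2 signal in the 4 F2 pools, minus the mean of the 4 pools, for genes of 3 lists chosen after their values were seen. Circles of F2 EX pool 1 lie far right for plasma protein and liver enzyme genes and for several neuronal genes, and squares of F2 SED pool 2 lie right for all 15 leukocyte genes.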

How the data were processed

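The deposited values of the 10 arrays are log2 signals per probe set, read as log2 from their range (0.966 to 14.2). Per the labels' protocols, each array held RNA pooled from 5 animals. Affymetrix Expression Console is named in the submitters' processing notes. The sources used here do not give its version, how it corrected background, normalized and summarized, or a build. Values were used as deposited, with F2 array medians from 3.23 to 3.30, and the small number of arrays sets the precision.

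GEO's platform annotation, possibly dated, gave 1 symbol for 21789 of 35557 probe sets, several for 1621 and none for 12147. Those with several were not used to name genes. Each of 19938 genes was represented by its probe set of highest mean signal (999 genes had several), and the 11963 genes at or above the 40th percentile of mean signal (3.23) were kept. A model of the 4 descendant groups on 8 arrays was fitted with limma 3.58.1 (lmFit, eBayes) in R 4.3.3, with Benjamini-Hochberg adjustment over all kept genes, and tested on simulated data.

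The rule for naming took, per direction, the 15 genes with the smallest p and the 5 largest estimates among genes without overlap. It also took up to 4 members of each of 37 gene lists by p, and a fixed set of muscle genes. Not all of these genes are described in the text. Genes without a characterised product, olfactory and small RNA genes were passed over, 0 in the higher and 4 in the lower direction by p. Members and lists were chosen with earlier results of these data known. Acta1, Ahsg, Alb, Aldoc, Cd74, Col12a1, Comp, Dbp, Fasn, Gys1, Myh7b, Nr1d1, Olfr767, Postn, Pygm, Scd1, Serpinh1, Tnmd, Usp17ld and the microRNAs fall outside the rule or were chosen after their values were seen, as were the plasma protein, neuronal and leukocyte lists and cyclic loess. Alternatives changed the samples, the normalization, the filter, the probe set rule, the variance model, array weights, the pool number as a block, and each pool in turn. Promoter and microRNA sequences are RefSeq's (GRCm38.p6), which held all 4 clock promoters and all 5 microRNAs looked up.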

Additional observations from a re-analysis of the deposited data

How the results depend on the processing

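The count of genes past the adjusted threshold in F2 was 0 with limma in all 18 alternatives, with 251 to 1097 genes at an unadjusted p under 0.05 and smallest adjusted p from 0.116 to 1. The difference between F2 and F1 effects called from 0 to 143 genes when 1 pool was left out (143 without F1 EX pool 2 and 5 without F1 SED pool 1), and 0 otherwise. Genes with both EX pools above numbered 4956 with array medians centred, and those below 1066 with centring, 3727 without a filter and 714 with a filter at the 60th percentile. With each F2 pool left out in turn they ran from 4681 to 5322 above and from 3096 to 3686 below, since fewer pools overlap less. List medians ran from 0.10 to 0.36 for tendon and cartilage and from 0.12 to 0.32 for slow fibres. Of 94 genes followed through 18 alternatives, 74 kept the sign of their estimate in each, 20 turned in some, and 0 passed the adjusted test in any. With array medians centred, estimates turned to 0.038 for Acta1, 0.041 for Cs, 0.055 for Nr1d1, 0.022 for Serpinh1, 0.045 for Slc2a4, 0.025 for Mstn and 0.018 for Vegfa. Quantile normalization turned Acta1 to 0.014 and Cd36 to -0.0058, and cyclic loess, chosen after seeing the data, turned Cd36 to -0.023. Without 1 F2 pool, estimates ran from -0.056 to 0.011 for Acta1, -0.43 to 2.22 for Ahsg, -0.32 to 1.88 for Alb, -1.11 to 0.40 for Cd74, -0.078 to 0.040 for Cs, -0.030 to 0.20 for Dnmt3a, -0.93 to 0.26 for Fasn, -0.24 to 0.070 for Mir125a, -0.10 to 0.093 for Nr1d1, -0.11 to 0.39 for Pdk4, -0.11 to 0.23 for Ppargc1a, -1.41 to 0.11 for Ptprc, -1.09 to 0.37 for Scd1, -0.28 to 0.21 for Serpinh1, -0.081 to 0.050 for Slc2a4, -0.070 to 0.11 for Cd36, -0.047 to 0.054 for Myh4, -0.12 to 0.032 for Vegfa and -0.51 to 3.57 for Usp17ld. The cause of these changes was not tested. With the pool number as a replicate block 0 genes passed, and 519 had an unadjusted p under 0.05. Pools of the same number in F2 EX and F2 SED hardly deviated together (correlation 0.06 across genes). The labels give them a shared number only, and whether they shared handling was not tested. Leaving out a pool leaves 1 in its group, assumed to vary like the others. No detection call was used here, so signal over background was not assessed.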

Other observations

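Genes that set muscle mass and fuel supply overlapped between the F2 groups, or differed by little. Mstn, myostatin, which restrains muscle growth, read 8.00, 7.97, 8.05 and 7.99 as log2 signal in EX pool 1, EX pool 2, SED pool 1 and SED pool 2, an EX minus SED estimate of -0.03 (95% interval -0.62 to 0.55). Igf1, a growth factor of muscle, read 6.72, 6.80, 6.69 and 6.69, an estimate of 0.07, and -0.11 in F1. Hk2, the muscle hexokinase, read 10.19, 10.17, 10.16 and 9.96, an estimate of 0.12 that became 0.02 without SED pool 2. Cd36, a fatty acid transporter, read 9.74, 9.56, 9.71 and 9.55 and overlapped, while both F1 EX pools lay below F1 SED, with an F1 estimate of -0.47. Vegfa, a growth factor of vessels, read 7.92, 7.81, 7.98 and 7.83, and Myh4, the fastest myosin, 13.13, 13.18, 13.20 and 13.10. None of these had an F2 interval that left out 0.

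Tnnt2, the cardiac and developmental troponin T, read 5.83, 4.93, 4.80 and 4.81. EX pool 1 alone was high, and the estimate of 0.58 became 0.13 without it. Usp17ld, a deubiquitinase gene of a family of near-identical copies, read 9.27, 8.25, 9.27 and 5.19, and Olfr767, an olfactory receptor, 2.95, 3.26, 3.53 and 6.33. In both, SED pool 2 stood far from the other 3 pools. They were picked out after their values were seen, and the cause was not tested.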
